A study of Mus musculus with 6 samples.

Results

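The genes described here are 10 members of the semaphorin system: the ligands *Sema3b*, *Sema4a*, *Sema4b*, *Sema4d* and *Sema7a*, the plexin receptors *Plxna1*, *Plxnb2* and *Plxnd1*, and the neuropilin co-receptors *Nrp1* and *Nrp2*. They were found by symbol among the 23420 symbols of the gene count table, which holds 31 semaphorin, plexin and neuropilin genes in all. The list was chosen by name with the genotype difference of these same libraries already known, in which *Sema3b* has one of the larger differences. The values of that contrast are therefore given for the 10 genes as a description, and no p-value is given for them; intervals and calls from the fit over all genes describe the values and support nothing. All 10 passed the minimum of 10 counts summed over the libraries that left 13682 genes for testing.

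The study asked which transcripts of activated B cells depend on AhR, the aryl hydrocarbon receptor, which lies in the cytoplasm until a small planar ligand sends it to the nucleus to switch on genes. RNA was sequenced from splenic B cells of 3 Ahr+/+ and 3 Ahr-/- mice on a C57Bl/6J background, with 1 library per mouse. The Ahr-/- mice carry a germline deletion, so every cell of the animal lacks the receptor and the B cells developed without it. The mice were adult and matched for age and gender. Cells of both genotypes had the same culture: 8 h with anti-IgM at 10 µg/ml, which engages the B cell receptor, together with IL-4 at 20 ng/ml, and with the AhR ligand FICZ at 250 nM over the final 4 h. No culture without FICZ is analysed here, and a difference between the genotypes includes whatever the lack of the receptor did before the ligand was added. B cells were enriched from the spleen by magnetic removal of other cells rather than sorted to purity.

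Semaphorins are a family of secreted and membrane-bound proteins first known for steering growing axons, and several of them act between lymphocytes and the cells that they meet. Class 3 semaphorins such as Sema3b are secreted and mostly signal through a plexin held together with a neuropilin, whereas class 4 semaphorins span the membrane and Sema7a is anchored by a lipid. Plexins carry a GTPase-activating domain inside the cell that acts on Ras and Rap proteins, and they pass the signal on to kinases and to the proteins that build actin and microtubules. In lymphocytes some semaphorins also bind receptors that are not plexins: Cd72 for Sema4d, Tim-2 (*Timd2*) for Sema4a and a beta 1 integrin for Sema7a.

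AhR binds DNA with its partner Arnt at a short core, GCGTG, which reads CACGC on the opposite strand. Windows of 300 bases, from 250 before to 50 after a start site, were taken from RefSeq (build GRCm38.p6), where 8 of the 10 members matched; *Sema3b* and *Plxna1* did not. Among these 8 genes, 4 had a core on either strand in a window: *Plxnd1*, *Nrp2*, *Nrp1* and *Sema7a*. The stretches that hold the cores are shown because they carry the factor's letters next to the start sites of the members concerned, with each core in capitals and the rest in lower case, 5′ to 3′ on the gene's strand.
Plxnd1, chr6:115994986-115995105, minus strand: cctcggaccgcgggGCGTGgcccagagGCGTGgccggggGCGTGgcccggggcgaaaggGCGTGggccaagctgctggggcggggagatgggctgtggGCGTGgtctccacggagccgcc
Nrp2, chr1:62703097-62703176, plus strand: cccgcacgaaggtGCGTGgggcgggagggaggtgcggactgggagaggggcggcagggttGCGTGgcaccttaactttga
Nrp1, chr8:128358887-128358946, plus strand: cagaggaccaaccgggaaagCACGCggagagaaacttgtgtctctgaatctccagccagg
Sema7a, chr9:57939927-57939986, plus strand: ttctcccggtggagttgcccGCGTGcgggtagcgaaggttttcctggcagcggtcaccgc

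The *Plxnd1* stretch holds 5 cores, the *Nrp2* stretch 2, and the other two 1 each, which in *Nrp1* lies on the opposite strand. The longer form TNGCGTG, which contains the core, was found in 1 of the 15 member windows, that of *Nrp2*. No window of *Sema4a*, *Sema4b*, *Sema4d* or *Plxnb2* held the core. The letters are common: 32.4% of all 32851 windows hold the core and 5.07% the longer form, and by gene the share with a core is 35.2%. Among the members with a core, *Plxnd1* and *Nrp2* were higher in Ahr-/- cells while *Nrp1* and *Sema7a* differed by less than their spread. A match here is a description of the letters, not a binding site.

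The libraries held between 22095096 and 53648787 counts, and 3 counts, the floor used here, correspond to 0.0555 to 0.134 CPM (counts scaled to the library's effective size). The deleted gene itself was still counted, at 13175 ± 682 normalized counts in Ahr+/+ and 9174 ± 472 in Ahr-/- libraries (mean ± SD, n = 3 each), and counts over a whole gene do not show which exons the reads came from. The AhR target *Cyp1a1* stood at 5246 and 5.36 normalized counts, *Cyp1b1* at 229 and 0, and *Ahrr* at 329 and 1.86, and all 5 AhR targets listed were lower in Ahr-/- cells by edgeR's quasi-likelihood test. Across the transcriptome 2453 of 13682 genes were called at a Benjamini-Hochberg adjusted p under 0.05, which is 17.9% (8.13% lower and 9.79% higher in Ahr-/- cells), and in 33.5% of the tested genes the 3 values of one genotype did not overlap the 3 of the other. B cell markers summed to between 103400 and 109000 normalized counts in Ahr+/+ and between 119800 and 125900 in Ahr-/- libraries, and T cell markers to between 246 and 389 and between 259 and 275. Of the 10 B cell markers 5 were called higher and 1, *Ebf1*, lower in Ahr-/- cells. Of the 8 T cell markers 1, *Cd3e*, was called lower and none higher. The 6 markers of marginal zone B cells summed to between 22040 and 23660 in Ahr+/+ and between 15100 and 16810 in Ahr-/- libraries. By edgeR's adjusted p 2 of them, *Dtx1* and *Cd9*, were lower and 1, *S1pr3*, was higher, and none was at 0. *Dtx1* made up 46.8% of the sum in Ahr+/+ libraries and fell from 10628 ± 703 to 3156 ± 206. Without *Dtx1* the sums overlapped between genotypes, so the lower sum rests on this gene. The part of these changes in the values of the members was not tested.

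Of the 10 members, 7 were called in the fit over all genes, 2 of them lower and 5 higher in Ahr-/- cells, and in 8 the genotypes did not overlap. These counts stand beside the 17.9% and 33.5% of all genes and nothing is read from them, since the members were proposed with this contrast known. The median log2 difference (Ahr-/- minus Ahr+/+) over the members was 0.13, against 0.0022 over all tested genes. Values below are normalized counts, that is, counts divided by the library's effective size relative to the mean of 38436495. They are listed for replicates 1, 2 and 3 of a genotype, and the labels give no pairing for these numbers. Differences are log2 values from the edgeR fit with their standard error (SE).

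**Figure D1:**
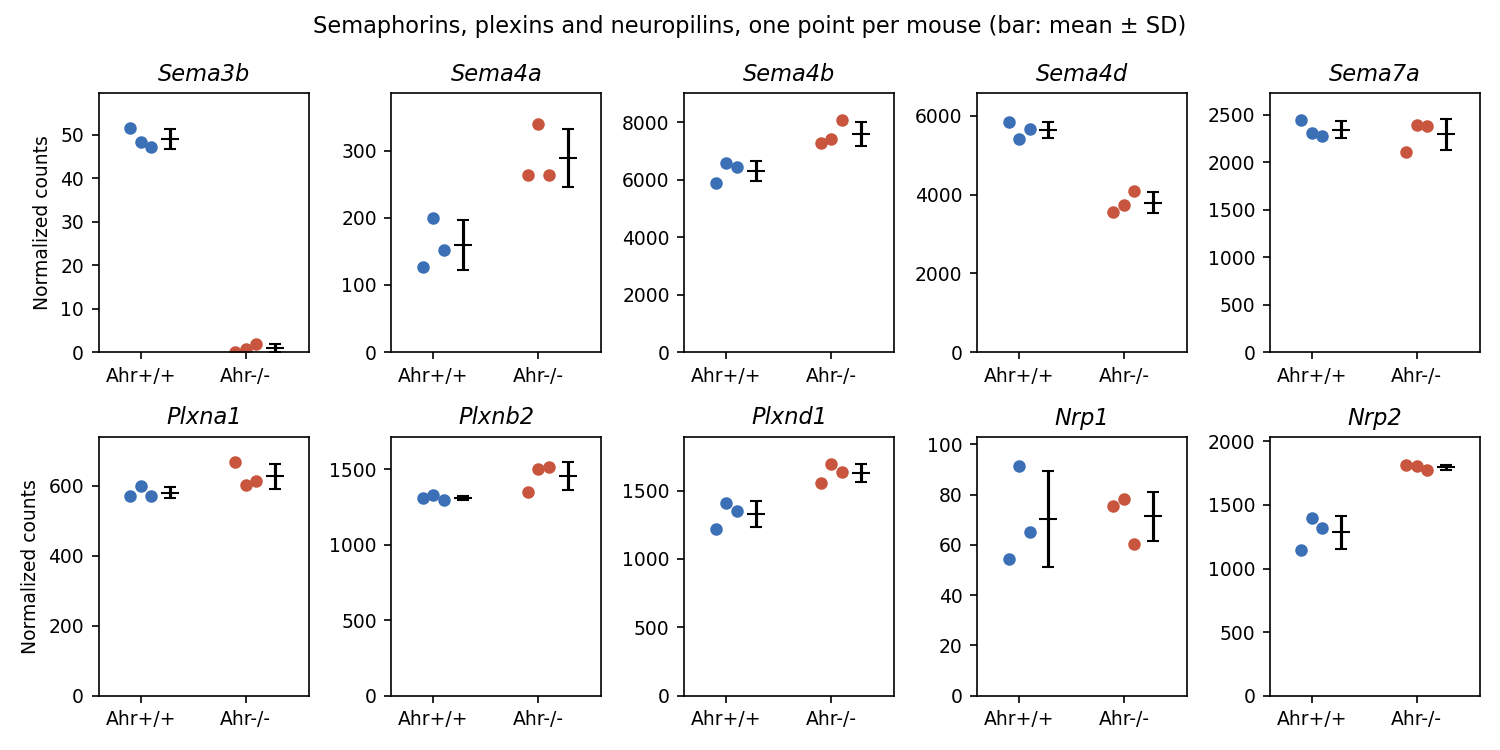
Normalized counts of the 10 genes in each library (vertical axis, from 0, scaled per gene; blue, Ahr+/+; red, Ahr-/-; 1 point per mouse, bars give mean ± SD of 3 mice). *Sema3b* lies between 47.2 and 51.5 in Ahr+/+ and between 0 and 1.82 in Ahr-/- libraries, *Sema4d* is the other member that is lower in Ahr-/- cells, and the points of *Sema7a* and *Nrp1* overlap between genotypes.

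*Sema3b* (chr9:107597674-107609229, minus strand, GRCm38) encodes a secreted class 3 semaphorin that binds neuropilins and is known as a candidate tumour suppressor. It was counted 53, 48 and 42 times in the Ahr+/+ libraries and 0, 1 and 2 times in the Ahr-/- libraries. After normalization these were 51.5, 48.3 and 47.2 against 0, 0.711 and 1.82, with means of 49.0 ± 2.23 and 0.845 ± 0.919 (SD, n = 3 each). The transcript was thus present at a low and even level in every Ahr+/+ library and under the floor of 3 counts in every Ahr-/- library. From 143 counts against 3, the level in Ahr+/+ was 50.5-fold that in Ahr-/- cells, with a 95% interval of 16.9 to 248 by the exact Clopper-Pearson method that covers counting error only. The fitted log2 difference was -5.49 (SE 0.423), a value that rests on so few counts that it moved to -4.10 with a prior count of 2 and to -6.29 without Ahr-/- replicate 3. No other gene overlaps *Sema3b* in the GENCODE annotation of this build.

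The course of *Sema3b* over the 6 libraries was closest to that of *Pltp*, which encodes the phospholipid transfer protein of plasma. The measure was the root mean square difference of log2 CPM, centred per gene, over 6 libraries and 12016 genes. *Pltp* was at 0.195 on this scale, followed by *Hic1*, a transcriptional repressor (0.295), *Tiparp*, an AhR-induced ADP-ribosyltransferase that limits AhR activity (0.314), *Rem2*, a small GTPase (0.398), and *Lrrk2*, a large kinase (0.435). Each of these 5 genes was lower in every Ahr-/- library, which follows from choosing them by likeness to *Sema3b*. *Pltp* averaged 1415 ± 74.3 in Ahr+/+ against 64.9 ± 11.1 normalized counts in Ahr-/- libraries, and *Rem2* 524 ± 68.7 against 39.0 ± 0.603. Within the family *Sema6d* was the most like, at rank 24 with 0.793, and *Sema6c* came next at rank 118. Among the members *Sema4d* was nearest, at rank 423. The order depends on the measure, because with a prior count of 0.5 only 2 of these 5 genes stayed among the nearest 5 and by Pearson correlation none did.

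*Sema4d* (chr13:51685529-51793747, minus strand), also known as CD100, is a membrane semaphorin of lymphocytes that binds Cd72 on B cells and plexin B1 elsewhere. It measured 5830, 5409 and 5675 normalized counts in Ahr+/+ and 3556, 3746 and 4088 in Ahr-/- libraries. Every Ahr-/- library was below every Ahr+/+ library, by more than the spread within either genotype. The means were 5638 ± 213 and 3797 ± 269 (SD, n = 3 each), a log2 difference of -0.57 (SE 0.0517). Leaving out any single library kept it between -0.63 and -0.53. A microRNA gene of the annotation, Gm23566, lies on the opposite strand within it, and whether the counting used strand is not given in the sources used here.

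*Sema4b* (chr7:80186841-80226527, plus strand) is another membrane semaphorin of class 4. Its normalized counts were 5897, 6572 and 6453 in Ahr+/+ and 7292.5, 7434 and 8078 in Ahr-/- libraries. The genotypes did not overlap, with the Ahr-/- libraries higher at a mean of 7602 ± 419 against 6307 ± 361 (SD, n = 3 each). The log2 difference was 0.27 (SE 0.0509). *Sema4b* and *Sema4d* differed in opposite directions. Within a library, *Sema4b* counts over *Sema4d* counts came to 1.01, 1.22 and 1.14 in Ahr+/+ and to 2.05, 1.98 and 1.98 in Ahr-/- libraries. The means of this ratio were 1.12 ± 0.103 and 2.00 ± 0.0408 (SD, n = 3 each).

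*Sema4a* (chr3:88435959-88461182, minus strand) encodes a membrane semaphorin of antigen-presenting cells that co-stimulates T cells. It was counted at 126, 199 and 152 normalized counts in Ahr+/+ and at 264, 339 and 264 in Ahr-/- libraries. The highest Ahr+/+ library stayed below the lowest Ahr-/- library. The means were 159 ± 37.0 and 289 ± 43.4 (SD, n = 3 each), and the log2 difference of 0.88 (SE 0.157) was the largest among the members that were higher in Ahr-/- cells. Without single libraries it ran from 0.73 (without Ahr+/+ replicate 1) to 1.08 (without Ahr+/+ replicate 2).

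Dendritic cells also make *Sema4a*, and the summed levels of their markers were higher in Ahr-/- libraries too. The 9 markers of conventional dendritic cells summed to between 1950 and 2297 normalized counts in Ahr+/+ and between 2419 and 2686 in Ahr-/- libraries. Of these 9 markers 5 were higher in Ahr-/- cells by edgeR's adjusted p, 1 was lower and none was at 0. *Sirpa*, which other cells also express, made up 59.5% of the sum in Ahr+/+ libraries. Without *Sirpa* the sums overlapped between genotypes. *Cd209a* rose from 6.50 ± 1.35 in Ahr+/+ to 36.5 ± 8.69 normalized counts in Ahr-/- libraries, *Clec9a* from 5.87 ± 0.855 to 20.7 ± 6.74, *Clec10a* from 7.53 ± 4.89 to 26.6 ± 7.07 (not called without Ahr-/- replicate 2, edgeR adjusted p = 0.053), *Itgax* from 148 ± 38.7 to 302 ± 53.9 and *Sirpa* from 1299 ± 148 to 1612 ± 83.8. In the same list the lineage factor *Zbtb46* fell from 552 ± 23.9 to 418 ± 23.2 (edgeR adjusted p = 0.0014). *Flt3* (137 ± 6.49 and 117 ± 19.7) and *Xcr1* (18.3 ± 1.70 and 16.0 ± 4.09) were not called. The 9 markers of plasmacytoid dendritic cells, of which 7 were higher by the same test and none was at 0, summed to between 4020 and 4628 in Ahr+/+ and between 5194 and 6235 in Ahr-/- libraries. *Bst2* made up 49.4% of this sum in Ahr+/+ libraries. It averaged 2127 ± 205 and 2498 ± 512 normalized counts, overlapped between genotypes and was not called (edgeR adjusted p = 0.23). Without Ahr-/- replicate 3 it was called (edgeR adjusted p = 0.0055). *Rpgrip1*, the other marker not called, averaged 469 ± 28.8 and 446 ± 16.2, and *Siglech*, their defining surface lectin, rose from 56.8 ± 4.19 to 270 ± 32.3. In these bulk libraries a change in the number of cells of a type and a change in RNA per cell cannot be told apart, and the part of dendritic cells in the values of *Sema4a*, *Nrp1*, *Nrp2* and the plexins was not tested.

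*Sema7a* (chr9:57940112-57962865, plus strand) encodes the lipid-anchored semaphorin that binds a beta 1 integrin and plexin C1. It measured 2443, 2308 and 2280 normalized counts in Ahr+/+ and 2108, 2395 and 2387 in Ahr-/- libraries. The genotypes overlapped, and the log2 difference was -0.02 (SE 0.0515, 95% interval -0.14 to 0.09). *Sema7a* lies 236.3 kb from *Cyp1a1* on the same chromosome.

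*Plxnd1* (chr6:115954811-115995005, minus strand), the receptor known for binding Sema3e in vessels and thymocytes, had 1222, 1409 and 1354 normalized counts in Ahr+/+ and 1558, 1694 and 1633 in Ahr-/- libraries. All Ahr-/- libraries were higher, with means of 1628 ± 67.9 against 1328 ± 96.1 (SD, n = 3 each) and a log2 difference of 0.30 (SE 0.0563). Endothelial cells also make *Plxnd1*, *Nrp1* and *Nrp2*. Their 9 markers summed to 120 to 134 normalized counts in Ahr+/+ and 156 to 192 in Ahr-/- libraries. *Emcn* was at 0 throughout and *Egfl7* made up 37.8% of the sum in Ahr+/+ libraries. *Cdh5* averaged 8.57 ± 2.35 and 14.1 ± 2.18 and *Esam* 15.9 ± 5.04 and 11.6 ± 2.25, and neither was called. Of the 6 endothelial markers tested 1, *Egfl7*, was higher by edgeR's adjusted p, a call that was lost with DESeq2 and without any one of 5 libraries, and their part in the values of these receptors was not tested.

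*Plxnb2* (chr15:89155549-89180788, minus strand), a receptor of class 4 semaphorins, measured 1307, 1328 and 1296 normalized counts in Ahr+/+ and 1351, 1501 and 1515 in Ahr-/- libraries. The groups did not overlap, but Ahr-/- replicate 1 lay close to the Ahr+/+ values. The log2 difference was 0.16 (SE 0.0501). Its call in the fit over all genes did not hold with DESeq2's size factors, with DESeq2's own test, with the replicate number as a block, at a threshold of 0.01, or without any single library other than Ahr-/- replicate 1.

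*Plxna1* (chr6:89316314-89362620, minus strand), which pairs with neuropilins for class 3 semaphorins and binds Sema6d, had 571, 600 and 572 normalized counts in Ahr+/+ and 668, 601 and 614 in Ahr-/- libraries. The lowest Ahr-/- value exceeded the highest Ahr+/+ value by under 2 normalized counts, and the gene was not called. Its log2 difference was 0.10 (SE 0.0623, 95% interval -0.03 to 0.24). The annotation places an antisense gene, Gm26811, on the other strand of *Plxna1*.

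*Nrp2* (chr1:62703285-62818695, plus strand) is a co-receptor for class 3 semaphorins, Sema3b among them, and for vascular endothelial growth factors. It measured 1143, 1395 and 1322 normalized counts in Ahr+/+ and 1811, 1804 and 1775 in Ahr-/- libraries. The Ahr-/- libraries were all higher and nearly equal to each other. The means were 1287 ± 129 and 1797 ± 18.9 (SD, n = 3 each), with a log2 difference of 0.48 (SE 0.0623) that stayed between 0.40 and 0.54 without single libraries. An antisense gene of the annotation, Gm29083, overlaps *Nrp2*.

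*Nrp1* (chr8:128358604-128503363, plus strand), the other neuropilin and also a receptor for Sema3a, was counted at 54.4, 91.6 and 65.1 normalized counts in Ahr+/+ and at 75.5, 78.2 and 60.2 in Ahr-/- libraries. The genotypes overlapped throughout. The log2 difference of 0.02 (SE 0.21) had a 95% interval of -0.44 to 0.47, and its sign turned when single libraries were left out (-0.15 to 0.255). *Nrp2* counts over *Nrp1* counts in a library were 21.0, 15.2 and 20.3 in Ahr+/+ and 24.0, 23.1 and 29.5 in Ahr-/- libraries, which did not overlap.

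To order the genes by level, CPM values were divided by the length of the union of annotated exons in kilobases (kb). On this scale *Sema4b* was the most abundant member in Ahr+/+ cells at 29.1 ± 1.66 CPM per kb, followed by *Sema4d* at 19.1 ± 0.724 and *Sema7a* at 18.5 ± 0.687 (SD, n = 3 each). Then came *Plxnd1* at 4.73 ± 0.342, *Plxnb2* at 4.42 ± 0.0546, *Nrp2* at 2.83 ± 0.284 and *Plxna1* at 1.67 ± 0.0469. The scarcest were *Sema4a* at 0.765 ± 0.178, *Sema3b* at 0.267 ± 0.0122 and *Nrp1* at 0.187 ± 0.0509. Of the 9 pairs of neighbours in this order, 2 overlapped in their ranges over the Ahr+/+ libraries, *Sema4d* with *Sema7a* and *Plxnd1* with *Plxnb2*.

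In Ahr-/- cells no pair of neighbours overlapped. *Sema7a*, at 18.1 ± 1.29 CPM per kb, now stood above *Sema4d* at 12.9 ± 0.909, and *Sema3b*, at 0.0046 ± 0.00501, stood below *Nrp1* at 0.190 ± 0.0258. *Sema4b* remained first at 35.0 ± 1.94. As shares of the summed per-kb level of all semaphorins, *Sema4b* made up 40.1% to 44.0% in Ahr+/+ and 50.5% to 52.6% in Ahr-/- libraries, and *Sema4d* made up 26.6% to 29.1% and 18.7% to 19.3%. *Sema7a* kept a similar share, 26.2% to 28.4% and 26.0% to 27.8%, and *Sema3b* was under 1% of the sum in every library. *Nrp2* accounted for 92.6% to 94.6% of the neuropilin level in Ahr+/+ and up to 96.1% in Ahr-/- libraries.

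**Figure D2:**
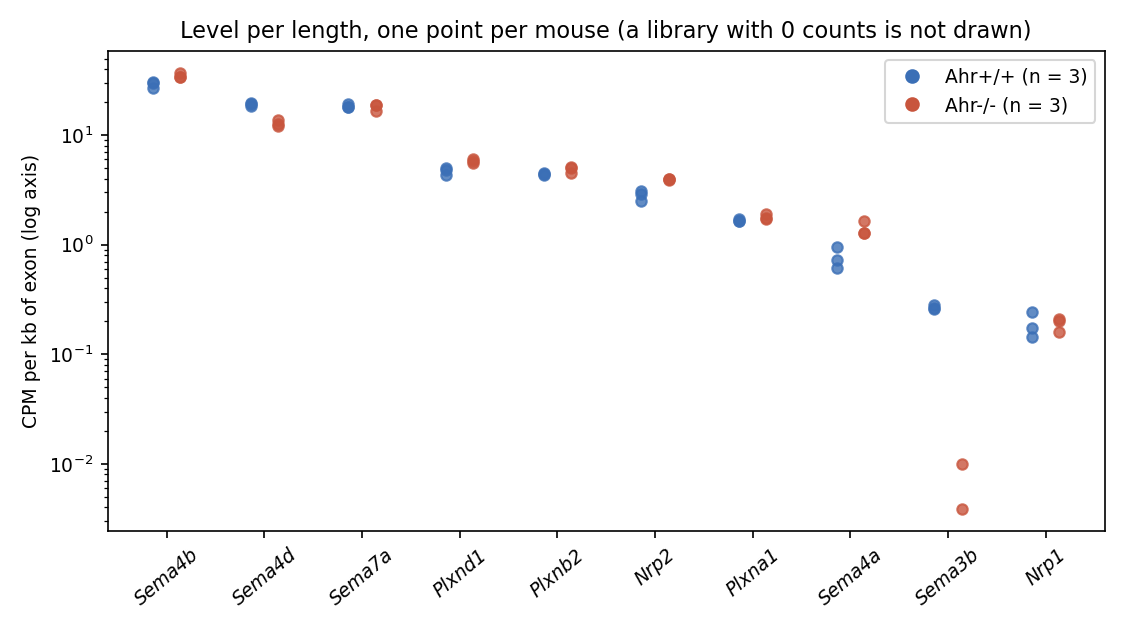
Level of each gene in CPM per kb of exon (vertical log axis) in each library, genes ordered by their Ahr+/+ mean (blue, Ahr+/+; red, Ahr-/-; 3 mice each; the Ahr-/- library with 0 counts of *Sema3b* is not drawn). *Sema4b*, *Sema4d* and *Sema7a* stand above all receptors in both genotypes, and the only points below 0.1 are those of *Sema3b* in Ahr-/- libraries.

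Of the 21 family genes outside the list, 13 could be tested, and 3 of them (23.1%) were called, beside 17.9% of all genes: 2 were lower and 1 was higher in Ahr-/- cells. *Sema6d*, a membrane semaphorin that binds plexin A1, fell from 157, 164 and 175 normalized counts to 24.0, 21.3 and 24.6. That is 166 ± 9.02 against 23.3 ± 1.76 (SD, n = 3 each), a log2 difference of -2.83 (SE 0.16, edgeR adjusted p = 9.3e-08). *Plxna3*, a receptor for class 3 semaphorins, rose from 1070 ± 54.8 to 1393 ± 50.2, a log2 difference of 0.39 (SE 0.0515, edgeR adjusted p = 1.8e-04). *Sema6c* was barely counted, at 10.7 ± 1.65 and 3.58 ± 1.88 normalized counts (log2 difference -1.43, SE 0.45, edgeR adjusted p = 0.046), and lost its call in 8 of 12 alternatives, where adjusted p ranged up to 0.21 with DESeq2.

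The remaining relatives gave no call. *Plxnc1*, the plexin receptor of Sema7a, averaged 1285 ± 161 and 1538 ± 207 normalized counts and overlapped between genotypes (log2 difference 0.26, SE 0.0996, edgeR adjusted p = 0.10), but it was called without Ahr-/- replicate 3 (adjusted p = 0.0061) and with no filter (adjusted p = 0.035). *Plxnb1*, the plexin that binds Sema4d outside the immune system, was at 8.99 ± 2.67 and 13.6 ± 1.80, and *Sema4g* at 26.0 ± 5.97 and 22.9 ± 3.51. *Sema4c* averaged 8.30 ± 3.16 and 13.5 ± 4.26, and *Sema4f* 10.6 ± 3.95 and 6.04 ± 3.57. The class 3 genes *Sema3d* and *Sema3f* were close to the floor, at 2.77 and 1.65 and at 3.77 and 4.52 normalized counts. *Plxna2* was counted 0, 1 and 1 times in Ahr+/+ and 2, 8 and 4 times in Ahr-/- libraries and missed the threshold narrowly, passing it only when library size alone set the scale (edgeR adjusted p = 0.047). *Sema5a* (29.8 ± 8.31 and 17.5 ± 4.18) passed it only without Ahr+/+ replicate 3 (edgeR adjusted p = 0.048). A further 8 family genes were below the minimum, *Sema3c* and *Sema5b* with no count in any library. By branch, 4 of 14 tested semaphorins were called as lower and 2 as higher, 3 of 7 tested plexins as higher, and 1 of 2 neuropilins as higher, beside 8.13% lower and 9.79% higher of all genes. Whether the branches differ was not tested, and these counts include the members.

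**Figure D3:**
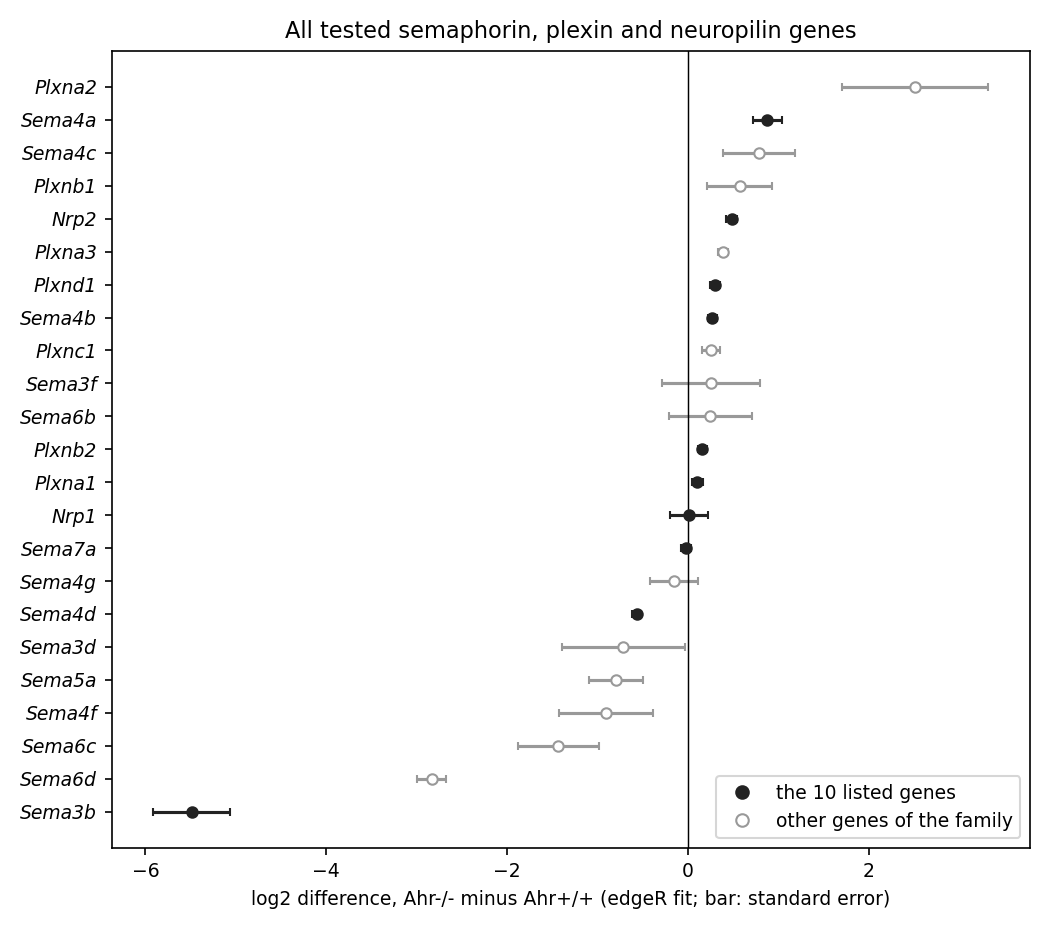
Log2 difference (Ahr-/- minus Ahr+/+, horizontal axis; bars, SE of the edgeR fit) of the 23 tested semaphorin, plexin and neuropilin genes, with the 10 members as filled and the other genes as open circles. *Sema3b* at -5.49 and *Sema6d* at -2.83 lie farthest to the left, most members lie between 0 and 0.9, and *Plxna2* at 2.51, with 16 counts in all libraries together, was not called.

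Outside the family, 47 of 54 listed genes of the pathway could be tested, and 18 were called, 8 lower and 10 higher in Ahr-/- cells by edgeR's adjusted p, beside 17.9% of all genes. The list was written with earlier results of these libraries known. Among the other receptors and plexin partners, 1 of 11 tested genes fell and 5 rose, beside 8.13% and 9.79% of all genes. *Cd72*, the B cell receptor for Sema4d that restrains B cell receptor signals, went from 9030, 7932 and 8032 normalized counts to 11710, 12079 and 14024. Its log2 difference was 0.60 (SE 0.0667, edgeR adjusted p = 4.1e-05), opposite in sign to that of its ligand. *Sema4d* counts over *Cd72* counts within a library averaged 0.678 ± 0.0307 in Ahr+/+ and 0.302 ± 0.00949 in Ahr-/- cells (SD, n = 3 each).

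*Timd2*, which encodes the receptor Tim-2 for Sema4a, rose from 548, 582 and 730 normalized counts to 1152, 1407 and 1322 (log2 difference 1.08, SE 0.0978, edgeR adjusted p = 6.9e-06). The beta 1 integrin *Itgb1*, a receptor subunit for Sema7a, rose from 3659 ± 73.4 to 4722 ± 161 (log2 difference 0.37, SE 0.0399, edgeR adjusted p = 3.1e-05), while *Sema7a* itself did not differ beyond its spread. The alpha 1 integrin *Itga1* of the same list averaged only 11.8 and 13.4 normalized counts, overlapped between genotypes and was not called (edgeR adjusted p = 0.7). *Met*, a receptor tyrosine kinase that pairs with class B plexins, went from 12.6 ± 1.24 to 45.0 ± 10.1 (edgeR adjusted p = 4.8e-04). *Tyrobp*, an adaptor of myeloid and NK cells that joins plexin A1 to Trem2, went from 118 ± 18.9 to 217 ± 25.9 (edgeR adjusted p = 7.8e-04). *Trem2* itself was near the floor, at 1.65 and 2.27 normalized counts, and was not called (edgeR adjusted p = 0.68). The 10 macrophage and monocyte markers summed to between 1201 and 1490 normalized counts in Ahr+/+ and between 609 and 1091 in Ahr-/- libraries. However, *Emr1* alone made up 48.4% of the sum in Ahr+/+ libraries and fell from 650 ± 14.7 to 54.1 ± 16.1. Without *Emr1* the sums overlapped, at 547 to 828 and 574 to 1028, 1 other marker was called, *Cd14*, which was higher (7.08 ± 3.86 and 24.7 ± 13.1, edgeR adjusted p = 0.03), and none of the 10 was at 0. The NK cell markers, with *Klra8* at 0, summed to between 256 and 337 and between 296 and 480, and 2 of 5 tested were called, both higher: *Ncr1* (13.4 ± 0.271 and 25.7 ± 8.70, edgeR adjusted p = 0.049) and *Klrb1c* (27.0 ± 8.90 and 52.1 ± 10.6, edgeR adjusted p = 0.028). The calls of *Cd14*, *Ncr1* and *Klrb1c* did not hold without some single libraries, with edgeR adjusted p up to 0.11 (without Ahr+/+ replicate 3), 0.33 (without Ahr-/- replicate 2) and 0.12. That of *Ncr1* was also lost with DESeq2's size factors, with the replicate number as a block (edgeR adjusted p = 0.072) and with DESeq2's own test (adjusted p = 0.17). The part of these cells and of dendritic cells in the *Tyrobp* values was not tested. *L1cam*, an adhesion protein that binds neuropilin 1, was the receptor partner that fell, from 109 ± 18.0 to 74.4 ± 10.2 (edgeR adjusted p = 0.046), but its call was lost with DESeq2, with library size alone and without any one of 4 libraries, with edgeR adjusted p up to 0.16 (without Ahr+/+ replicate 1).

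**Figure D4:**
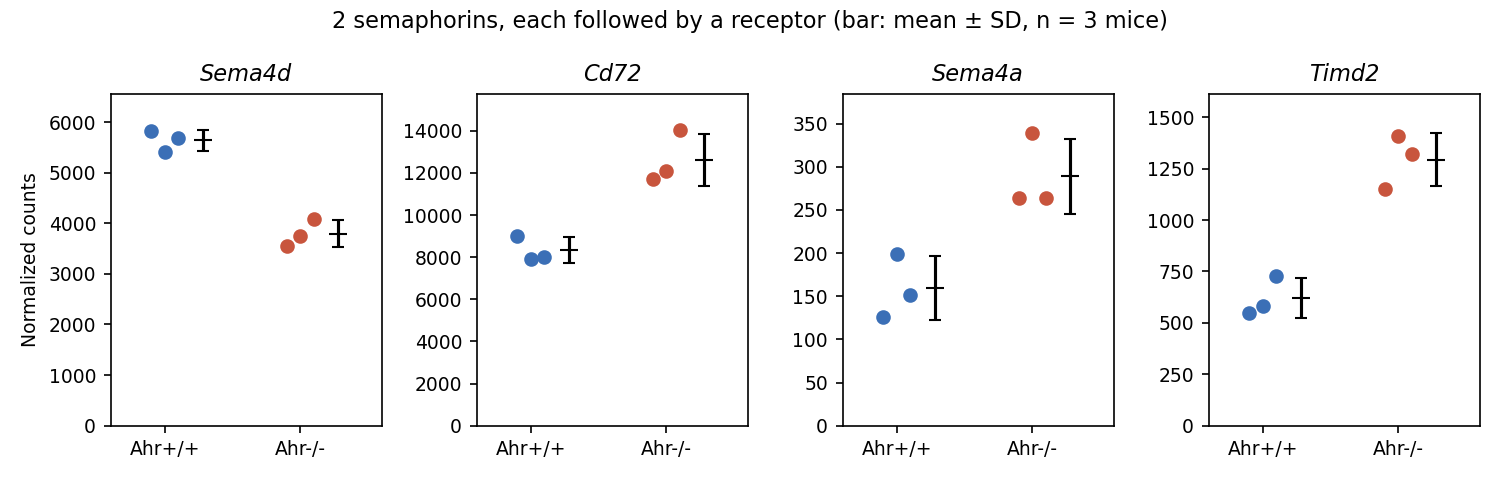
Normalized counts per library (vertical axes from 0; blue, Ahr+/+; red, Ahr-/-; bars, mean ± SD of 3 mice) of *Sema4d* beside its receptor gene *Cd72* and of *Sema4a* beside its receptor gene *Timd2*. *Sema4d* is lower (5638 to 3797) and *Cd72* higher (8332 to 12605) in Ahr-/- cells, whereas *Sema4a* (159 to 289) and *Timd2* (620 to 1294) are both higher.

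Of 13 tested small GTPases and their regulators, 4 fell and 1 rose, beside 8.13% and 9.79% of all genes. *Arhgef12*, an exchange factor that couples class B plexins to RhoA, fell from 1771 ± 127 to 1287 ± 23.4 normalized counts (log2 difference -0.46, SE 0.0532, edgeR adjusted p = 5.4e-05). *Farp2*, an exchange factor for Rac bound by plexin A1, fell by 0.42 on the log2 scale (edgeR adjusted p = 0.018), and the Ras family members *Rap1b* and *Rras2* fell by 0.24 and 0.16 (edgeR adjusted p = 0.0013 and 0.025). The calls of *Farp2* and *Rras2* did not hold without some single libraries, where edgeR adjusted p reached 0.086 (without Ahr+/+ replicate 3) and 0.15 (without Ahr-/- replicate 2), and that of *Rras2* was also lost with library size alone (edgeR adjusted p = 0.058). *Sh3bp1*, a GTPase-activating protein for Rac that acts with plexin D1, rose by 0.36 (edgeR adjusted p = 0.004). *Rhoa* itself averaged 21194 ± 687 and 20597 ± 386 normalized counts and was not called (edgeR adjusted p = 0.49).

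Among the 14 tested kinases, collapsin response mediators, MICALs and actin regulators, 2 fell and 3 rose, beside the same shares of all genes. *Dpysl2*, the mediator that carries class 3 semaphorin signals to microtubules, fell from 622, 653 and 672 normalized counts to 249, 269 and 297 (log2 difference -1.24, SE 0.0767, edgeR adjusted p = 2.2e-07). *Mical1*, an enzyme that oxidizes actin, fell by 0.20 on the log2 scale (edgeR adjusted p = 0.04). The kinases *Cdk5*, *Limk2* and *Rock2* rose by 0.19, 0.17 and 0.16 (edgeR adjusted p = 0.031, 0.017 and 0.013). Without single libraries the edgeR adjusted p reached 0.13 for *Mical1* (without Ahr-/- replicate 2) and, without Ahr+/+ replicate 3, 0.12 for *Cdk5* and 0.084 for *Limk2*. The call of *Mical1* was also lost with library size alone (edgeR adjusted p = 0.063), and that of *Cdk5* with the replicate number as a block (edgeR adjusted p = 0.06) and with DESeq2 (adjusted p = 0.091).

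Of the 4 proteases that cut semaphorins, 1 was called (25%, beside 17.9% of all genes): the membrane metalloprotease *Mmp14*, which can release Sema4d from the cell surface, rose from 69.9 ± 11.4 to 115 ± 12.7 normalized counts (edgeR adjusted p = 0.0087). *Adam17*, another sheddase, averaged 3883 ± 214 and 3662 ± 88.6 and was not called (edgeR adjusted p = 0.24). Of the 5 other ligands of neuropilins, 1 was called (20%, near the 17.9% of all genes): *Tgfb1* fell from 10270 ± 258 to 6864 ± 322 (log2 difference -0.58, SE 0.0417, edgeR adjusted p = 8.6e-07), and *Vegfa* averaged 928 ± 48.1 and 888 ± 65.9 (edgeR adjusted p = 0.64).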

How the data were processed

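RNA was measured by stranded mRNA sequencing in 6 libraries, 3 per genotype, each from 1 mouse. The table used holds the raw counts per gene symbol that the authors deposited; their processing notes name TopHat2, HTSeq and DESeq and the build mm10, and give no strand setting. Normalized counts deposited alongside, and a table of the authors' own comparison (mean levels, fold changes and p-values), were not used. Counts were fitted with edgeR 4.0.16 (R 4.3.3; TMM scaling, quasi-likelihood test, genotype as the only term) over the 13682 genes with at least 10 counts in sum, with Benjamini-Hochberg adjustment over all of them and a threshold of 0.05; the common biological coefficient of variation was 0.0476. Fitted log2 differences used a prior count of 0.125. The labels give each mouse a replicate number but no pairing. The p-values measure the spread between these mice. The script was tested on simulated data.

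The members and gene lists were chosen with earlier results of these data known. Named were all members, family genes called or in a member's subfamily, up to 6 called genes per pathway list with the largest log2 difference, *Cd72* and *Itgb1*, and the 5 genes most like *Sema3b*. Outside this rule, *Plxnc1*, *Sema5a*, *Sema5b*, *Itga1*, *Trem2*, *Rhoa*, *Adam17*, *Vegfa* and single cell type markers were added after their values were seen. Positions and exon lengths came from GENCODE M21 (GRCm38). Alternatives were other scaling, filters, prior count and threshold, DESeq2 1.42.0, a replicate block, and each library left out.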

Additional observations from a re-analysis of the deposited data

How the results depend on the processing

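Among the alternatives, the 7 calls among members became 6 to 7, the 10 in the family 8 to 11, and the 18 in the pathway 11 to 18. Leaving out single libraries gave 6 to 7, 8 to 10 and 14 to 17. The pathway count of 11 came at an adjusted p under 0.01, which moved it by over 1.5 times. Of the 5 genes most like *Sema3b*, 2 remained with a prior count of 0.5 and 0 by Pearson correlation. With the replicate number as a block, 6 members, 8 family genes and 17 pathway genes were called, and 2303 of all genes against 2453. The same-numbered libraries correlated at -0.0299, 0.12 and -0.0448 in their deviations from the group means. Not every library correlated best with its own number. With 3 libraries per genotype these correlations cannot tell whether the mice were paired by litter or day, which the labels do not give. Scaling by library size alone moved the share of higher genes among all calls from 54.6% to 63.8% and the median log2 difference of all genes to 0.03. An order of the members without gene length was not run, since it compares no levels between genes. No called difference of a gene named with its values changed sign in the alternatives run; outside the members, *Sema6c*, *L1cam*, *Farp2*, *Rras2*, *Mical1*, *Cdk5*, *Limk2*, *Egfl7*, *Clec10a*, *Cd14*, *Ncr1* and *Klrb1c* lost their calls at the 0.05 threshold in at least 1 alternative, and among the pathway genes *Rock2* did so at 0.01 only. *Sema3b* in Ahr-/- cells (3 counts in all) and *Sema6c* (43 counts in all libraries) rest on few counts.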
